A study of Mus musculus with 12 samples.

Results

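The mitochondrial ribosomal proteins are the nuclear-encoded proteins of the ribosome inside mitochondria. They were taken as the protein-coding genes whose mouse symbol starts with Mrpl or Mrps followed by a number, and this choice used names and no measured value. 78 genes met it, of 21760 protein-coding genes and 48526 gene rows in all: 49 are named for the large subunit (Mrpl) and 29 for the small subunit (Mrps). RNA of small-intestinal epithelium was sequenced from 4 female mice aged 3 months. Each mouse gave an unselected input library and pulldowns with J2 and K1, antibodies that bind double-stranded RNA whatever its sequence. In the KAT2A/KAT2B DKO, removal of both lysine acetyltransferases had been induced in the adult by 4 daily intraperitoneal injections of tamoxifen at 100 mg/kg. Controls were injected with the vehicle, ethanol in corn oil, and how often is not given. The tissue, the proximal part of the small intestine stripped with EDTA, was taken 2 days after tamoxifen ended. The labels name neither the Cre driver nor the alleles, so the cells that lost the genes are not given. Genotype and tamoxifen changed together and cannot be told apart. The 12 libraries form 6 groups of 2: control and DKO, each as input, J2 and K1.

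Mitochondria keep a small genome of their own, and its protein-coding genes all specify parts of the respiratory chain and ATP synthase. These few proteins are made by a ribosome whose RNA comes from the mitochondrial genome and whose proteins are made in the cytosol and imported. Part of these proteins descend from bacterial ribosomal proteins, and the others were added during mitochondrial evolution. In the intestine, mitochondrial output feeds nutrient transport in enterocytes and division in crypts.

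Gene-assigned counts were 10307281 to 11474107 in the inputs and 13308021 to 16139531 in the control pulldowns. In DKO the J2 libraries held 5826361 and 2691285, and the K1 libraries 5559033 and 2220291. In these 4 libraries the median count of a mitochondrial ribosomal protein gene was 23 to 37 per library, against 123 to 202 in the inputs. Mitochondrial-chromosome genes took 8.76% to 18.6% of counts in the DKO pulldowns and at most 2.77% in the control pulldowns. Between replicates, Pearson's r of log2 CPM (counts scaled to a common library size with TMM factors) over 77 of the genes was 0.98 in both control input and control J2 and 0.978 in control K1. It was 0.95 in DKO input, 0.76 in DKO J2 and 0.814 in DKO K1. Kat2a had 222 and 228 input counts in control and 84 and 148 in DKO (log2 fold change -0.88, adjusted p = 0.0205), and Kat2b had 359 and 343 against 118 and 114 (-1.51, adjusted p = 0.000631). RNA of both was thus reduced but still present in DKO, and more of Kat2a was left in the second DKO mouse. All 10 epithelial markers were detected, at a summed 6482 to 7840 CPM in the inputs. Leukocyte markers summed to 76.5 and 92.9 CPM in control input and to 53.6 and 57.9 CPM in DKO input. Markers of mesenchyme, muscle and endothelium were at 2.62 to 7.41 CPM in the inputs, 3.76 to 41.5 CPM in control pulldowns and 35.8 to 208 CPM in DKO pulldowns, with Cdh5 at 0 in both J2 groups and Des in DKO K1. The replicates are different animals, so p-values of DKO against control rest on the spread between 2 animals a group. The fits of pulldown against input, and of its change, entered the libraries of an animal as separate samples. Their spread was shared by both genotypes.

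The 78 genes lie on 17 chromosomes, and their merged exons span a median of 2394 bases (607 to 8631). By the roles of their products they were grouped into 30 large-subunit proteins with a bacterial counterpart, 21 large-subunit proteins specific to mitochondria, 16 small-subunit proteins with a bacterial counterpart and 10 small-subunit proteins specific to mitochondria. Mrps30 and Mrps18a sit in the large subunit despite their symbols and were counted there. Mrps36 stood outside the 4 groups, because its product is now known as a subunit of the alpha-ketoglutarate dehydrogenase complex. The counts were made without strand, and 33 of the 78 genes share exon sequence with another annotated gene, 10 of them over more than 20% of their exon length. Mrpl53 had 0 counts in all 12 libraries. Ccdc142os and Gm42688 overlap 88.0% of its exon length, and the files list reads that match several genes apart, as ambiguous. The floor of 3 counts allows it up to 0.185 to 1.36 CPM, depending on the library. The other 77 genes had counts in every group.

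In control input the 78 genes summed to 1272 and 1286 CPM in the 2 mice. DKO input held 948 and 1178 CPM, both below the controls, but the first DKO mouse lay much lower than the second (1063 ± 162, SD, n = 2). Control J2 held 891 and 886 CPM, below control input. DKO J2 held 714 and 1204 CPM, on either side of the control J2 values. Control K1 held 1253 and 1291 CPM, close to control input, and DKO K1 held 907 and 1079 CPM, below both control K1 libraries. In bulk RNA, fewer cells of a type and less RNA per cell cannot be told apart.

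**Figure D1:**
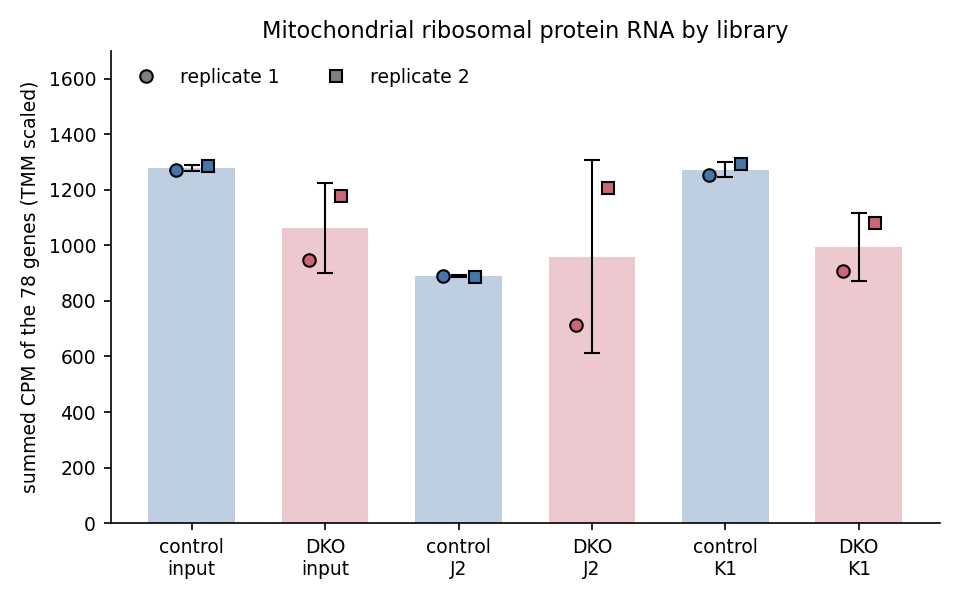
Summed CPM of the 78 genes (vertical axis, linear from 0) in each of the 6 groups (horizontal axis), with circles and squares for replicates 1 and 2, bars for the group mean and whiskers for its SD (n = 2). The 2 control libraries of each kind lie together, and the DKO J2 libraries are the farthest apart, at 714 and 1204 CPM.

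Per kilobase of exon, the highest gene in control input was Mrpl34, encoding the small L34-type protein of the large subunit, at 47.8 ± 5.63 CPM per kilobase (SD, n = 2). Mrps21, the S21-type protein of the small subunit, followed at 44.7 ± 0.849, within the spread of Mrpl34. Mrpl12, the L12-type stalk protein that also binds mitochondrial RNA polymerase, reached 28.5 ± 0.980 and the mitochondria-specific Mrpl52 reached 26.3 ± 0.616 CPM per kilobase. The lowest detected genes were Mrpl33 at 1.14 ± 0.196, Mrps6 at 0.939 ± 0.0657 and Mrps30 at 0.824 ± 0.0656 CPM per kilobase. The median gene stood at 5.07 CPM per kilobase. Merged exons include every annotated isoform, and which isoforms were present was not measured. Mrpl33 (7326 bases) and Mrps30 (6666 bases) have long merged exons, while those of Mrps6 span 1533 bases. The part of exon length in these ranks was not tested.

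Upstream sequences are shown for 7 genes that the input comparison turns on: Mrpl34, Mrpl23, Mrps31, Mrpl42 and Mrpl49, the 5 largest called decreases, Mrpl12, the stalk protein that also fell, and Mrpl45, which rose. RefSeq promoter windows (GRCm38.p6, 250 bases before to 50 after the start) matched 69 of the 78 symbols. Each stretch below is the longest part of the 250 upstream bases that no GENCODE exon covers, 5′ to 3′ on the gene's strand. That of Mrpl23 is upstream of the RefSeq start only and lies inside the GENCODE gene, which begins at chr7:142532686. Capitals mark matches, on either strand, to the NRF1 core GCGCANGC, the GABPA core CCGGAAG, the YY1 core AAGATGG or the CAAT box CCAAT. Mrpl34 is at chr8:71464676-71464925 on the + strand, Mrpl23 at chr7:142532831-142533011 (+), Mrps31 at chr8:22411310-22411339 (+), Mrpl42 at chr10:95501950-95502199 (-), Mrpl49 at chr19:6057786-6057843 (-), Mrpl12 at chr11:120484387-120484612 (+) and Mrpl45 at chr11:97315466-97315715 (+).
Mrpl34: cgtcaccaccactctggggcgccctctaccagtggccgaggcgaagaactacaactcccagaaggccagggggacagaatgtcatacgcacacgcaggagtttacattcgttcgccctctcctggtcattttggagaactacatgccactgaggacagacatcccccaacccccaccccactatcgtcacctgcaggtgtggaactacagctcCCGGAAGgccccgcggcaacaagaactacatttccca
Mrpl23: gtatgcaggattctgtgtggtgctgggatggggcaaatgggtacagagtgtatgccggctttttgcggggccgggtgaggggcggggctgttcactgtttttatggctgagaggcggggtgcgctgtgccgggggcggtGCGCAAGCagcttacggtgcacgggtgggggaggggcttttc
Mrps31: gtctccgtttcctaccggaatccaaaagga
Mrpl42: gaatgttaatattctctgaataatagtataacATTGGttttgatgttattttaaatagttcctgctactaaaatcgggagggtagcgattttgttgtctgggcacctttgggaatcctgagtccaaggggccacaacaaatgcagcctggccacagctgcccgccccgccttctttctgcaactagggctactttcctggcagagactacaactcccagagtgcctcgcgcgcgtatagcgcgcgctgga
Mrpl49: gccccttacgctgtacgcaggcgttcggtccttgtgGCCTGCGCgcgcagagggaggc
Mrpl12: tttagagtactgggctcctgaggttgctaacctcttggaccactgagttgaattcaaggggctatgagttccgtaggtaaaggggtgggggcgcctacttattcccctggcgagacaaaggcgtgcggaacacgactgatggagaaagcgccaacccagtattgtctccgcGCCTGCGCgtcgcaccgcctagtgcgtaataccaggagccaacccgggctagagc
Mrpl45: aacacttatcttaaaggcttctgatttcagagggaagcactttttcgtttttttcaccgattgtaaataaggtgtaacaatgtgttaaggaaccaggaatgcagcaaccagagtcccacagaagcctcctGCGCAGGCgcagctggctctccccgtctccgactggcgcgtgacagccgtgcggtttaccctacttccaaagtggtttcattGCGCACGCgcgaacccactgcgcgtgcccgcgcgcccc

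NRF1 and GABPA are transcription factors known for driving nuclear genes of mitochondria. The Mrpl34 stretch held 1 GABPA core, Mrpl23, Mrpl49 and Mrpl12 each held 1 NRF1 core, Mrpl45 held 2 NRF1 cores, and Mrpl42 held 1 CAAT box. The 30 bases of Mrps31 held none of the 4. Over whole windows, the NRF1 core was found in 31.9% of the 69 genes and in 11.2% of 27025 genes with a window. The GABPA core was in 37.7% against 9.9%, the YY1 core in 18.8% against 7.3%, and the CAAT box in 39.1% against 41.1%. These are matches of letters and no measure of binding. Among the stretches shown, the NRF1 core was in those of the decreased Mrpl23, Mrpl49 and Mrpl12 and of Mrpl45, the only increased gene shown.

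In input RNA, DKO against control, 14 of 77 mitochondrial ribosomal protein genes tested fell and 4 rose at adjusted p under 0.05 (edgeR's quasi-likelihood test, Benjamini-Hochberg over 15088 genes). Over all genes tested, 17.1% were called lower and 18.8% higher, so the 14 (18.2% of the 77) are near the background share, while the 4 (5.19%) are below it. The fitted change was below 0 for 60 genes and above 0 for 17, with a median log2 fold change of -0.24, beside 0.00 over all genes tested. The first DKO mouse carried most of this: 65 of 77 genes lay below the control mean there (median -0.46 on the log2 CPM scale) and 48 of 77 in the second (median -0.11). Without the first DKO mouse 5 genes were called lower and 4 higher (median -0.07, with 45 fitted below 0 and 32 above), and without the second 36 lower and 2 higher. Without control replicate 1 or 2, the calls were 6 and 4, all lower. In each such fit 1 library was left out. With library size alone in place of TMM the split was 12 lower and 1 higher, with the median of all genes shifted to -0.13. DESeq2 called 5 lower and 0 higher, with 3 higher at an unadjusted p under 0.05. Thinning to the smallest library gave 6 lower and 1 higher. All 12 libraries in 1 fit left 1 call, that of Mrpl34, lower.

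**Figure D2:**
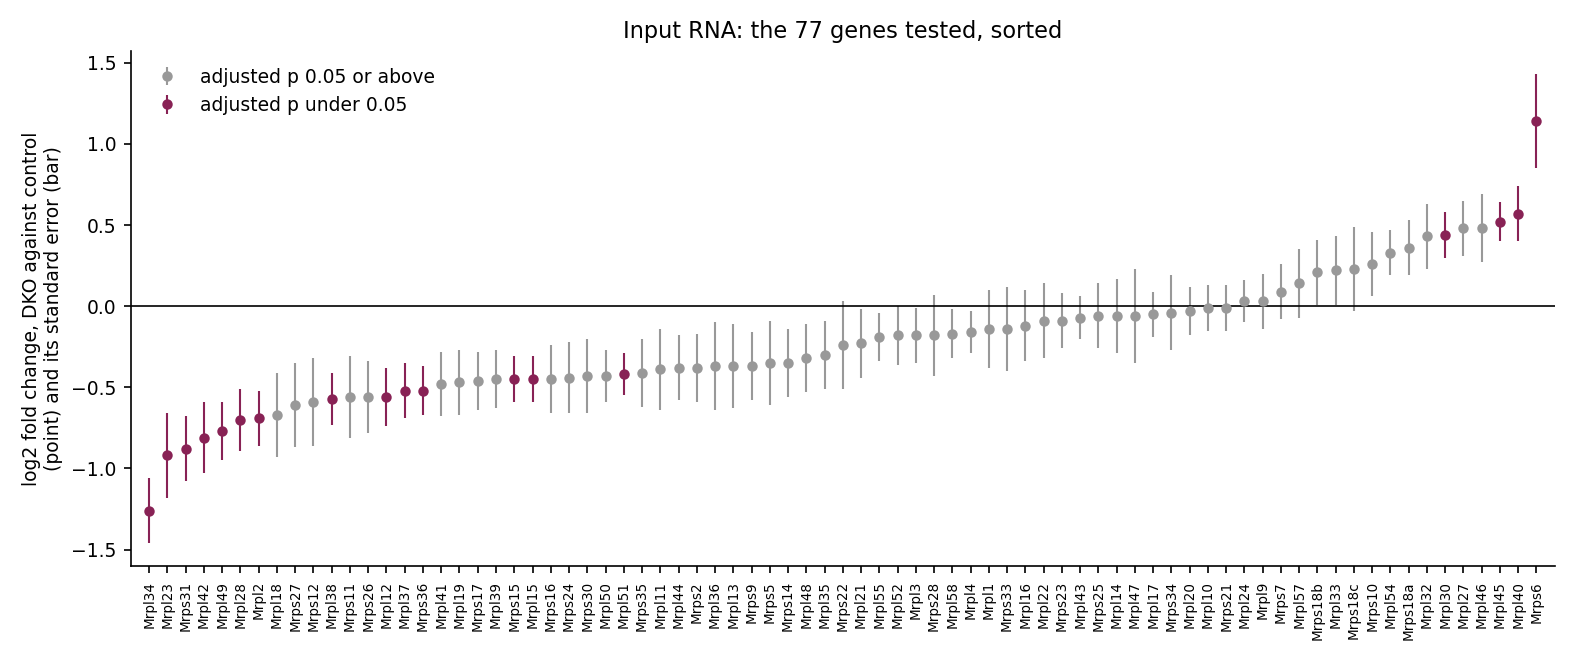
Log2 fold change of DKO against control in input (vertical axis, points) with its standard error (bars) for the 77 genes tested, sorted along the horizontal axis. The 18 called genes are coloured, and 60 of the 77 points lie below 0, from -1.26 for Mrpl34 to 1.14 for Mrps6.

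Among large-subunit proteins with a bacterial counterpart, 6 of 30 fell and 1 rose (median -0.17). Mrpl34 had 26.6 and 31.5 CPM in control input and 9.74 and 13.7 CPM in DKO input. The groups did not overlap, the log2 fold change was -1.26 ± 0.20 (SE, adjusted p = 0.00263), and the call held under all 13 alternatives, each left-out library among them. Mrpl23, a protein beside the exit of the nascent-chain tunnel, had 8.19 and 9.29 CPM against 3.498 and 5.43 CPM (-0.92 ± 0.26, adjusted p = 0.0301), again without overlap. Its call was lost in 5 of 13 alternatives, among them DESeq2 and the fits without control replicate 2 and without DKO replicate 1. Mrpl28 had 18.4 and 16.4 CPM against 8.91 and 11.9 CPM (-0.70 ± 0.19, adjusted p = 0.0267). That call was lost with DESeq2, with all 12 libraries in 1 fit, without control replicate 1 and without DKO replicate 1. Mrpl12 had 44.7 and 42.5 CPM against 23.5 and 34.0 CPM. Its change of -0.56 ± 0.18 passed narrowly (adjusted p = 0.045). The call was lost in the same fits as that of Mrpl28, and also with library size alone. Mrpl2 (-0.69) and Mrpl15 (-0.45) completed the 6. Mrpl30 rose, from 22.4 and 19.7 CPM to 26.2 and 29.2 CPM (0.44 ± 0.14, adjusted p = 0.0441). Its call was lost in 7 of 13 alternatives, among them DESeq2 and the fits without either control and without DKO replicate 2. Mrpl10, which anchors the Mrpl12 stalk, had 25.1 and 21.7 CPM in control and 21.8 and 23.4 CPM in DKO (-0.01 ± 0.14, adjusted p = 0.973), and Mrpl11, at the stalk base, did not pass either (-0.39 ± 0.25, adjusted p = 0.269).

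Among large-subunit proteins specific to mitochondria, 5 of 20 tested fell (25.0%) and 2 rose (10.0%), beside 17.1% lower and 18.8% higher over all genes. Their median was -0.35. Mrpl42 had 27.7 and 29.2 CPM in control and 11.99 and 19.5 CPM in DKO (-0.81 ± 0.22, adjusted p = 0.0251). Its call held without each single library but was lost with thinning and with all 12 libraries in 1 fit. Mrpl49 had 17.6 and 17.9 CPM against 8.83 and 11.4 CPM (-0.77 ± 0.18, adjusted p = 0.0146). That call was lost in the same 2 fits and without control replicate 2. Mrpl38, Mrpl37 and Mrpl51 also fell (-0.57, -0.52 and -0.42). The 2 that rose were Mrpl40 and Mrpl45. Mrpl45, a protein at the tunnel exit that ties the ribosome to the inner membrane, went from 24.0 and 25.8 CPM to 35.4 and 34.0 CPM (0.52 ± 0.12, adjusted p = 0.0143). Mrpl40 went from 12.1 and 13.5 CPM to 16.8 and 20.2 CPM (0.57 ± 0.17, adjusted p = 0.0338). Neither pair of groups overlapped, but both calls were lost without either control library, and that of Mrpl40 also without DKO replicate 2. Both were lost as well with library size alone, with DESeq2, with thinning to the smallest library and with all 12 libraries in 1 fit. Mrpl44, whose product has an RNase III-like fold, had 7.71 and 8.64 CPM against 6.33 and 5.87 CPM (-0.38 ± 0.20, adjusted p = 0.179), and Mrpl58, a peptidyl-tRNA hydrolase that rescues stalled ribosomes, changed by -0.17 ± 0.15 (adjusted p = 0.43).

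Among small-subunit genes with a bacterial counterpart, 1 of 16 fell (6.25%) and 1 rose (6.25%), with a median of -0.36. Of the mitochondria-specific ones 1 of 10 fell (10.0%) and 0 rose (median -0.19, with 3 of 10 at an unadjusted p under 0.05). These shares lie below the 17.1% called lower and 18.8% called higher over all genes. Mrps31, the mitochondria-specific one, had 18.9 and 23.1 CPM in control and 9.49 and 12.7 CPM in DKO (-0.88 ± 0.20, adjusted p = 0.0121). This call was lost without control replicate 2 and with all 12 libraries in 1 fit. Mrps15 fell by 0.45 on the log2 scale. Mrps6, the S6-type protein, had 19 and 19 counts in control and 40 and 39 in DKO (1.14 ± 0.29, adjusted p = 0.0202). It shares 19.9% of its exon length with Slc5a3 and Gm49711. Its call was lost in 5 of 12 alternatives, among them DESeq2 and the fits without either control and without DKO replicate 1. Mrps12, of the decoding centre (-0.59 ± 0.27, adjusted p = 0.131), and its neighbour Mrps5 (-0.35 ± 0.26, adjusted p = 0.339) did not pass. Nor did the S18-type paralogs Mrps18a (0.36, adjusted p = 0.134), Mrps18b (0.21, adjusted p = 0.431) and Mrps18c (0.23, adjusted p = 0.512), which all had fitted values above 0. Mrps36, the dehydrogenase subunit, fell from 22.3 and 26.3 CPM to 16.7 and 16.4 CPM (-0.52 ± 0.15, adjusted p = 0.0306). The call was lost in 7 of 13 alternatives, among them DESeq2 and the fits without either control and without DKO replicate 1.

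Mrpl46 and Mrps11 are head-to-head neighbours on chromosome 7 whose annotated exons overlap, and their fitted input changes were 0.48 and -0.56. Neither passed, and the 2 genes cannot be told apart where they share sequence.

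In input, the other genes of this machinery are set beside the 17.1% called lower and 18.8% called higher over all genes tested. Of the 5 mitoribosome proteins without an Mrp symbol, 0 passed by edgeR (median -0.22, 0 at an unadjusted p under 0.05). Of 25 assembly factors, 3 fell and 0 rose (median -0.21, 4 at an unadjusted p under 0.05). In both lists the share called lower lay below that of all genes. Mitochondrial translation factors had 5 of 16 lower and 0 higher (median -0.34), and mitochondrial aminoacyl-tRNA synthetases had 6 of 20 lower and 1 higher (median -0.49). For translation factors and synthetases alike, the share called lower lay above that of all genes and the share called higher below it. Nuclear respiratory chain subunits had 23 of 79 lower and 1 higher (median -0.28). Cytosolic ribosomal proteins had 48 of 82 lower and 1 higher, with a median of -0.58, beside -0.24 for the mitochondrial ribosomal proteins. Proliferation genes had 14 of 16 lower (median -1.35), with summed levels of 527 and 617 CPM in control and 188 and 240 CPM in DKO input. The part of proliferation or of the leukocyte markers in the input changes was not tested.

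Between the J2 pulldowns, DKO against control, Mrpl40 rose and no other gene passed. It had 8.36 and 7.52 CPM in control and 25.5 and 34.5 CPM in DKO (log2 fold change 1.99 ± 0.40, adjusted p = 0.0404), without overlap. That is 1 of 74 tested, where 6.04% of all 13181 genes were called higher and 6.17% lower. The count called lower was 0 by edgeR, with 7 at an unadjusted p under 0.05 and 1 called lower by DESeq2. The 2 DKO libraries went apart: against the control mean, 51 of 77 genes were lower in the first DKO mouse (median -0.29) and 54 of 77 higher in the second (median 0.46). The fitted median was 0.18, beside 0.03 for all genes. Without DKO replicate 1, 30 genes were called higher and 8 lower (median 0.50), and without DKO replicate 2, 5 higher and 19 lower (median -0.27). Without either control library 0 were called, and 0 passed an unadjusted p under 0.05 in those fits, so the call of Mrpl40 was lost there too. The mesenchymal, muscle and endothelial marker sum and the mitochondrial-chromosome share also stood apart in DKO pulldowns, as given above, and their part was not tested.

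Between the K1 pulldowns, 3 of 76 genes tested were called lower in DKO and 2 higher, beside 13.9% lower and 13.1% higher over all 12888 genes, both above the shares here. All 3 that fell encode large-subunit proteins specific to mitochondria. Of the 20 such genes tested, 3 fell (15.0%, near the 13.9% of all genes) and 1 rose. Mrpl49 had 21.2 and 16.7 CPM in control K1 and 2.61 and 2.71 CPM in DKO K1, from 345 and 224 against 11 and 6 counts. The change of -2.66 ± 0.41 (adjusted p = 0.0059) held under all 13 alternatives. Its input change was -0.77. Mrpl51 had 25.6 and 26.4 CPM against 8.54 and 3.62 CPM (-1.85 ± 0.39, adjusted p = 0.0151). Mrps30 had 52 and 55 counts in control and 1 and 0 in DKO. With DKO at the floor of 3 counts per library (1.03 CPM), Mrps30 was at least 3.53-fold lower than in control K1 (3.65 CPM), adjusted p = 0.0163.

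Mrpl40 and Mrpl20 went the other way. Mrpl40 had 22.4 and 19.9 CPM in control K1 and 40.8 and 62.4 CPM in DKO K1 (1.49 ± 0.33, adjusted p = 0.0186). Mrpl20, the L20-type protein that helps fold the large-subunit RNA in bacteria, had 8.13 and 9.90 CPM against 17.1 and 29.8 CPM (1.57 ± 0.40, adjusted p = 0.028). Mrpl40 was thus called higher in DKO in all 3 kinds of library by the main fits. The 3 kinds come from the same mice and are not independent. Its control and DKO values overlapped in none of them, and how often that holds over all genes was not counted. The Mrpl40 call was lost in 7 of 13 alternatives in input, 5 of 13 in J2 and 3 of 13 in K1. Library size alone in place of TMM lost it in each kind. The input change of Mrpl20 was -0.03 ± 0.15. The fitted median in K1 was -0.25, beside -0.02 for all genes, with 64 of 77 genes below the control mean in the first DKO mouse and 49 of 77 in the second. Without DKO replicate 1 the calls were 12 lower and 8 higher, and without DKO replicate 2, 13 lower and 3 higher. Without either control library 1 gene was called, lower, and Mrpl51, Mrps30, Mrpl20 and Mrpl40 lost their calls. With library size alone the split was 14 lower and 0 higher, with the median of all genes at -0.40. There Mrpl20 and Mrpl40 were not called, by edgeR, and 2 genes were higher at an unadjusted p under 0.05.

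**Figure D3:**
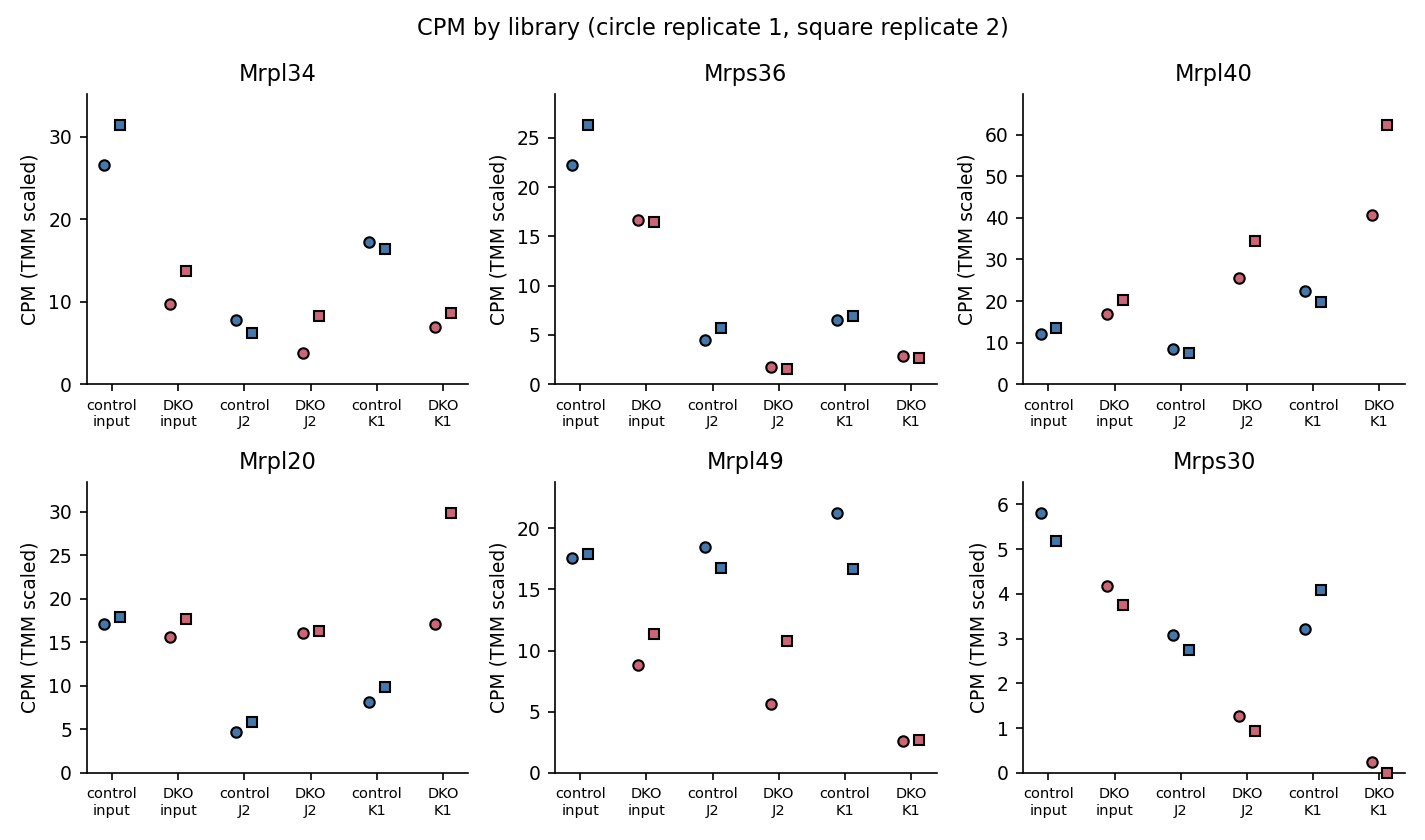
CPM (vertical axes, linear from 0) of 6 genes in the 12 libraries, by group (horizontal axes), with circles and squares for replicates 1 and 2. Mrpl34 is highest in control input, Mrps36 is low in every pulldown, Mrpl40 is higher in DKO than in control in each kind of library, Mrpl20 is lowest in the control pulldowns, and Mrpl49 and Mrps30 are lowest in DKO K1.

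Each pulldown was also set against input. In control epithelium, 26 of 77 mitochondrial ribosomal protein genes were called lower in J2 than in input, relative to all RNA, and 0 higher, with fitted values below 0 for 66 and above 0 for 11. Over all 15923 genes tested, 14.6% were called lower and 15.2% higher, so the share called lower (33.8%) lies above the background. DESeq2 called 31 lower and 0 higher, and 1 gene was higher at an unadjusted p under 0.05 by edgeR. The median log2 fold change was -0.70, beside -0.07 for all genes, and the 2 control mice gave medians of -0.64 and -0.80. The 4 role groups had like medians: -0.69 and -0.69 for the large subunit with and without a bacterial counterpart, and -0.68 and -0.87 for the small subunit. Mrpl42 went from 27.7 and 29.2 CPM in input to 4.32 and 3.56 CPM in J2 (-2.84 ± 0.63, adjusted p = 0.0129). Mrps36 went from 22.3 and 26.3 CPM to 4.45 and 5.74 CPM (-2.25 ± 0.27, adjusted p = 0.00214), and Mrpl34 from 26.6 and 31.5 CPM to 7.74 and 6.22 CPM (-2.05 ± 0.36, adjusted p = 0.00629). Mrpl23 followed (-1.93 ± 0.36, adjusted p = 0.00723). Without either control mouse 0 of the 77 were called, with 11 and 6 at an unadjusted p under 0.05, while without DKO replicate 1 or 2, which enter only through the spread, 58 and 55 were called.

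In DKO epithelium, 12 of 77 were called lower in J2 than in input and 3 higher, beside 13.4% lower and 12.2% higher over all genes. The median was -0.38, beside 0.10 for all genes, with -0.57 in the first mouse and -0.26 in the second. Mrps36 had 16.7 and 16.4 CPM in DKO input and 1.78 and 1.54 CPM in DKO J2 (-3.27 ± 0.34, adjusted p = 0.00186). This call held under all 12 alternatives. Mrpl33 (-1.92, adjusted p = 0.0435), Mrps16 (-1.81, adjusted p = 0.0144) and Mrpl22 (-1.30, adjusted p = 0.0279), the last a protein lining the nascent-chain tunnel, were also lower. With the animal as a block Mrpl33 missed the threshold (adjusted p = 0.0587). The 3 higher genes were Mrps26, Mrpl38 and Mrpl24. Mrps26, specific to the mitochondrial small subunit, had 5.58 and 6.97 CPM in input and 11.7 and 41.3 CPM in J2 (2.10 ± 0.55, adjusted p = 0.0273), the second mouse far above the first, and the call was lost without DKO replicate 2. Mrpl38 had 16.4 and 20.8 CPM against 32.3 and 74.3 CPM (1.54 ± 0.37, adjusted p = 0.0214). Mrpl24 (1.41, adjusted p = 0.0465) shares 26.3% of its exon length with Rrnad1 on the other strand, and its call was lost without DKO replicate 2 and with the animal as a block (adjusted p = 0.0567). With library size alone the split was 11 lower and 0 higher, with 2 higher at an unadjusted p under 0.05 and the median of all genes at -0.26. With GC content and exon length corrected it was 5 lower and 3 higher. Leaving out a mouse, with its input and J2 libraries, changed which genes were called.

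With K1 the control mice gave a mixed picture. Of 77 genes, 17 were lower and 6 higher than in input, beside 20.1% lower and 19.7% higher over all 15908 genes, and the median was -0.13, beside 0.00. The share called lower (22.1%) is near the background and the share called higher (7.79%) below it. Mrpl42 again was lowest, from 27.7 and 29.2 CPM to 5.11 and 4.54 CPM (-2.63 ± 0.50, adjusted p = 0.00265), and Mrps36 next among genes with at least 50 counts per library on average (-1.93 ± 0.22, adjusted p = 0.000267). Mrpl33 (-1.35) and Mrpl39 (-1.34) followed. The higher genes were Mrpl9 (1.09 ± 0.22, adjusted p = 0.00364), Mrps26 (0.96 ± 0.25, adjusted p = 0.0116), Mrpl44 (0.92 ± 0.25, adjusted p = 0.0149), Mrps28 (0.80), Mrpl38 (0.72) and Mrpl45 (0.65). Mrpl9 had 15.9 and 20.01 CPM in input and 35.5 and 45.6 CPM in K1. Library size alone gave 18 lower and 1 higher with the median of all genes at -0.23, RLE size factors gave 20 and 4, and the correction for GC content and length gave 11 and 9. That correction turned the median to 0.03, with 40 fitted values above 0 and 37 below. Without either control mouse 0 were called (10 at an unadjusted p under 0.05 in each fit), and without DKO replicate 1 or 2, 37 and 38.

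In DKO epithelium, 19 of 77 were lower in K1 than in input and 7 higher, beside 21% lower and 14.6% higher over all genes, with a median of -0.42 beside -0.14. Mrps36 was again far below its input, at 2.85 and 2.71 CPM against 16.7 and 16.4 CPM (-2.65 ± 0.29, adjusted p = 0.000273). Mrpl49 had 8.83 and 11.4 CPM in input and 2.61 and 2.71 CPM in K1 (-2.02 ± 0.34, adjusted p = 0.00212). Mrpl32, a zinc-binding protein matured by the m-AAA protease (-2.01 ± 0.39, adjusted p = 0.00383), and Mrpl57 (-1.86 ± 0.40, adjusted p = 0.00609) were lower as well. Mrps30 was at least 3.82-fold lower than its input of 3.95 CPM, with K1 at the floor. Among the 7 higher genes, Mrps26 had 19.2 and 24.9 CPM in K1 against 5.58 and 6.97 CPM in input (1.71 ± 0.27, adjusted p = 0.00157). Mrps34 (1.53, adjusted p = 0.00413) shares 77.8% of its exon length with Nme3 and Mapk8ip3. Mrpl44 had 6.33 and 5.87 CPM in input and 14.5 and 20.8 CPM in K1 (adjusted p = 0.00413), and Mrpl40 was higher by 1.38 ± 0.25 (adjusted p = 0.003). Mrpl38, Mrpl2 and Mrpl24 made up the 7 (1.15, 0.82 and 0.71). The calls of Mrps36, Mrpl49, Mrpl32, Mrps30, Mrps26, Mrps34, Mrpl44 and Mrpl40 held under all 12 alternatives, and that of Mrpl57 was lost in 2. Leaving out either control mouse, with its input and K1 libraries, lowered the number of genes called. Library size alone gave 32 lower and 4 higher, with the median of all genes at -0.48.

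Over both genotypes, the J2 value lay below the input value of the same animal in all 4 mice for 36 of 77 genes (46.8%), beside 24.8% of all 15908 genes. It lay above input in all 4 for 3 (3.9%, beside 19.2%): Mrpl9, Mrpl27 and Mrpl44. With K1, 27 genes were below input in all 4 mice (35.1%, beside 26.9%) and 13 above (16.9%, beside 25.5%), among them Mrpl9, Mrpl38, Mrpl40, Mrpl44, Mrps26 and Mrps34. Mrps36 was below input in every pulldown, with log2 differences of -3.26 to -2.16 (J2) and -2.52 to -1.74 (K1).

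**Figure D4:**
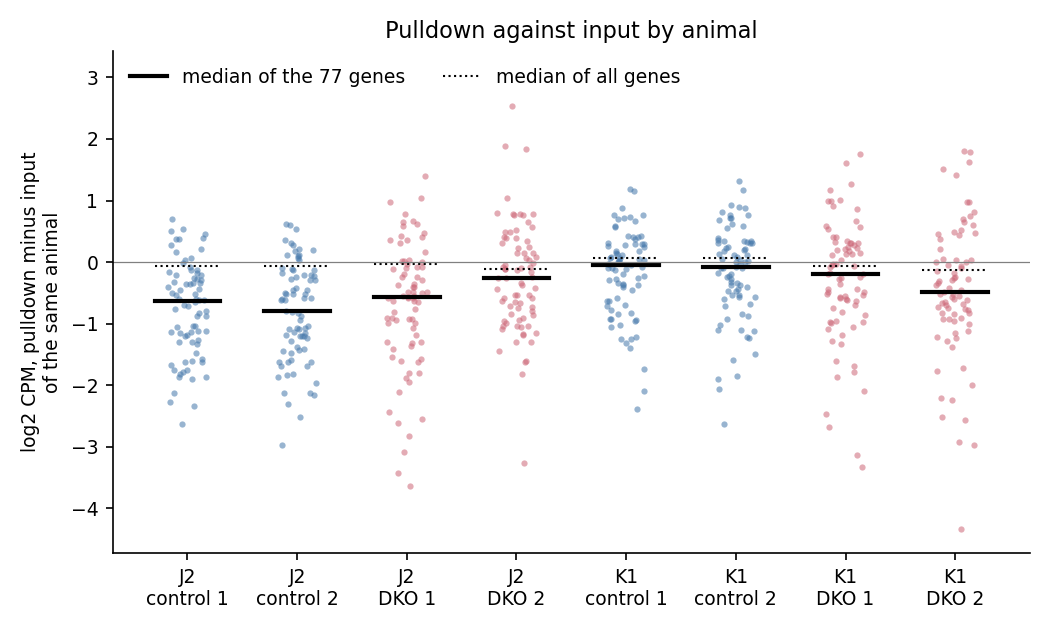
Log2 CPM of each pulldown minus input of the same animal (vertical axis) for the 77 genes with counts (points), by antibody, genotype and replicate (horizontal axis), with the median of the 77 genes (thick line) and of all genes (dotted line). The J2 medians lie between -0.80 and -0.26 and the K1 medians between -0.48 and -0.05, below the median of all genes in all 8 columns.

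Over all genes tested, 14.6% were called lower and 15.2% higher in J2 of control, and 20.1% lower and 19.7% higher in K1 of control. Among the compared lists, nuclear respiratory chain subunits lay lowest in the pulldowns. In J2 of control, 58 of 79 were lower than input and 0 higher (median -1.77, 65 at an unadjusted p under 0.05), and in K1 of control, 45 lower and 1 higher (median -0.83). Cytosolic ribosomal proteins had 34 of 82 lower and 3 higher in J2 of control (41.5% and 3.66%, median -0.85). In K1 of control they had 22 lower and 15 higher (26.8% and 18.3%, median -0.01). Mitoribosome assembly factors had 1 of 25 lower and 1 higher in J2 of control (median -0.23). Mitochondrial aminoacyl-tRNA synthetases, enzymes that charge the tRNAs used by this ribosome, had 1 of 20 lower and 4 higher (median -0.12), and translation factors had 3 of 16 lower and 2 higher (median -0.24).

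**Figure D5:**
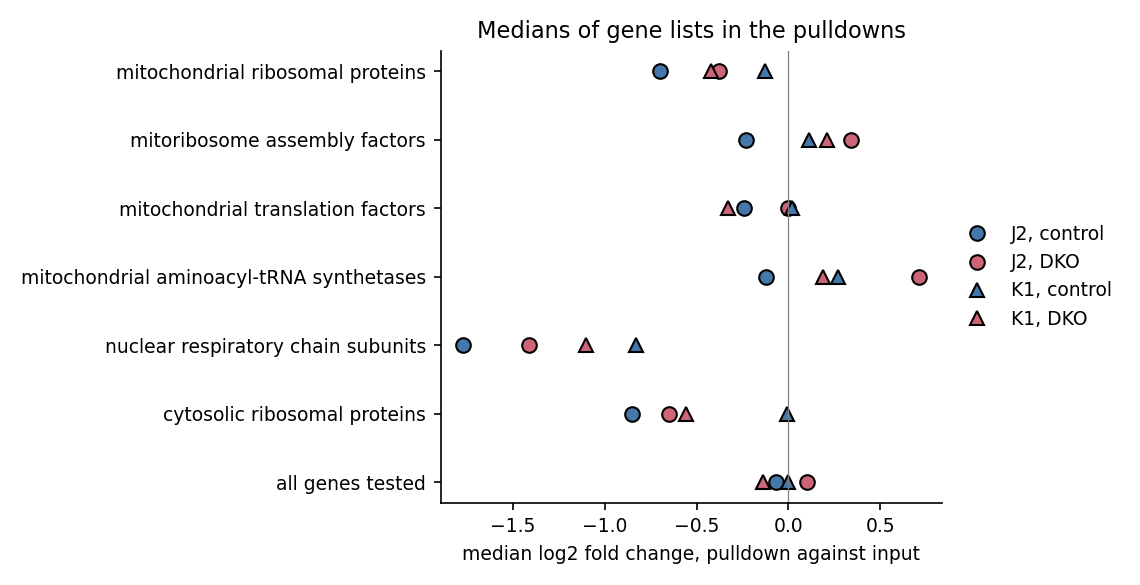
Median log2 fold change of each pulldown against input (horizontal axis) for the mitochondrial ribosomal proteins, 5 related gene lists and all genes tested (rows), with circles for J2, triangles for K1, blue for control and red for DKO. In J2 of control the mitochondrial ribosomal proteins lie at -0.70, between the assembly factors at -0.23 and the respiratory chain subunits at -1.77.

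The interaction, DKO minus control, asked whether pulldown against input differed between genotypes. For J2, 1 of 77 genes was called higher and 0 lower, beside 0.772% higher and 1.94% lower over all genes. By edgeR 4 genes were lower at an unadjusted p under 0.05, and DESeq2 called 3 higher and 2 lower. The gene was Mrpl20: its J2 minus input log2 values were -1.81 and -1.59 in the control mice and 0.04 and -0.11 in the DKO mice, which did not overlap (1.71 ± 0.35, adjusted p = 0.0467). This call was lost in 8 of 12 alternatives, among them the fit with the animal as a block (adjusted p = 0.0776) and the fits without either control mouse. The fitted value was above 0 for 59 of 77 genes, with a median of 0.37 beside 0.00. Without DKO replicate 1, 26 were called higher and 6 lower, without DKO replicate 2, 7 and 6, and without either control mouse 0, with 0 and 1 at an unadjusted p under 0.05.

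For K1, 2 of 77 were called lower and 0 higher, beside 4.1% lower and 1.37% higher over all genes. By edgeR 3 were higher at an unadjusted p under 0.05, and DESeq2 called Mrpl49 and Mrpl51 lower and Mrpl20 higher. Mrpl49 had K1 minus input log2 values of 0.27 and -0.10 in the control mice and -1.69 and -1.99 in the DKO mice (-2.04 ± 0.42, adjusted p = 0.0279), a call lost in 3 of 12 alternatives: thinning and the fits without either control mouse. Mrps30 had -0.82 and -0.33 against -3.33 and -4.33. Those 2 DKO values rest on 1 and 0 counts and depend on the prior count, and with K1 at the floor its change is -1.34 or lower (adjusted p of the fit = 0.0325). Its call was lost in 6 of 12 alternatives, among them DESeq2 and the correction for GC content and length. The median was -0.16, beside -0.20 for all genes. The count was 7 with the animal as a block (6 lower and 1 higher), 16 without DKO replicate 1, and 0 without either control mouse, where 4 and 6 passed an unadjusted p under 0.05.

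Across the 77 genes, as a description, the K1 against input change of control rose with GC content of the longest transcript (Spearman's rho 0.44, beside 0.23 over 15855 genes). For J2 of control it did not (-0.04, beside 0.05), and for the change of J2 enrichment it was 0.40, beside 0.31. Exon length went with J2 against input of control over all genes (0.40 over 15874 genes) more than over these (0.18). Genes of a library share its depth and scaling, and neither rho has a test.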

How the data were processed

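The authors deposited 1 table of raw read counts per gene and library, made without strand per the labels. The submitters' processing notes name STAR 2.7.10b, UMI-tools 1.1.4 and HTSeq 2.0.2 with mm10 and GRCm38.p4. Which reads the counts keep is not given in the sources used here. The rows that name no gene were left out. They held 37.15% to 38.21% of listed reads in the inputs, 18.69% to 24.78% in control pulldowns and 32.01% to 61.25% in DKO pulldowns. Reads without a unique alignment took 5.54% to 6.56% in control pulldowns and 15.83% to 46.71% in DKO pulldowns. Their part in the calls was not tested. IDs were matched without version to GENCODE M21 (48144 of 48526).

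Counts were tested with edgeR 4.0.16 (R 4.3.3): quasi-likelihood, TMM, filterByExpr with a minimum count of 10, Benjamini-Hochberg over all genes tested, calls at adjusted p under 0.05. DKO was set against control inside each library kind (2 residual degrees of freedom), and pulldown with input, and its change, in 8-library fits (4). Log2 CPM used a prior count of 2. The procedure was tested on simulated data.

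Input and pulldown of an animal carry its identifier in the labels, which pairs them. Their deviations from group means correlated at 0.23 to 0.32. Control and DKO numbers pair nothing.

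Named genes were, per comparison, up to 4 called rises and 4 called falls among those with a mean of at least 50 counts, the 4 highest and 3 lowest per kilobase, and genes of known special role. Others were named after their values were seen. Members and lists were chosen with earlier results of these data known. Alternatives were RLE size factors, no TMM, no filter, DESeq2 1.42.0, a replicate block and thinning to 2220291 counts. Further ones were correction for GC content and length (with the block added after seeing the data) and all 12 libraries in 1 fit. Each mouse was also left out, with its libraries of the fit.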

Additional observations from a re-analysis of the deposited data

Results flagged for a closer look

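In 3 genes the pulldown against input difference itself differed between DKO and control by the interaction test of edgeR. Mrpl20 had a J2 interaction of 1.71 ± 0.35 on the log2 scale (adjusted p = 0.0467), with both DKO mice above both control mice, and adjusted p ranged from 0.00239 to 0.739 over 12 alternatives. Mrpl49 had a K1 interaction of -2.04 ± 0.42 (adjusted p = 0.0279), with both DKO mice below both control mice. Mrps30 had a fitted K1 interaction of -3.99 (adjusted p = 0.0325), which rests on 1 and 0 counts in DKO K1 and is no bound, and its bound was -1.34. All 3 calls were lost without either control mouse.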

How the results depend on the processing

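Among the called changes of single named genes, 722 of 1036 gene-by-alternative calls were kept, 314 were lost and 0 reversed. Counts of called genes were 18 (input), 1 (J2) and 5 (K1) for DKO against control, 26 and 15 (J2) and 23 and 26 (K1) for pulldown against input in control and DKO, and 1 (J2) and 2 (K1) for the interaction. The causes of the shifts below were not tested. In leaving out 1 mouse, the lone sample left in a group is assumed to vary like the other groups.

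DKO against control, counts called: input gave 5 with DESeq2, 7 with thinning and 1 with all 12 libraries. J2 gave 2 with RLE, 0 without TMM, 8 without the filter, 2 with DESeq2, 0 with the GC content and length correction, 21 with all 12 libraries, and 0 with the replicate block plus that correction. K1 gave 14 without TMM, 12 without the filter, 3 with thinning, 9 with the correction, 16 with all 12 libraries and 10 with the block plus the correction. The K1 median became -0.63 without TMM, -0.45 without the filter, -0.04 with thinning and -0.44 with all 12 libraries.

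Pulldown against input: J2 in control gave 12 with thinning, and its median -1.08 without TMM and -0.84 with thinning. J2 in DKO gave 27 without the filter, 3 with thinning, 8 with the correction and 5 with the block plus the correction, and its median -0.64 without TMM and -0.62 without the filter. K1 in control gave 14 with thinning. Its median became -0.25 with RLE, -0.36 without TMM, -0.24 with DESeq2 and -0.28 with thinning, and it reversed to 0.03 with the correction, alone or with the block. K1 in DKO gave 16 with thinning, and its median -0.72 without TMM and -0.21 with the block plus the correction (11 higher and 12 lower).

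Interaction: J2 gave 0 without TMM, 4 without the filter, 5 with DESeq2, and 0 with the replicate block, thinning, the correction, and the block plus the correction. Its median became 0.07 without the filter. K1 gave 5 without TMM, 6 without the filter, 7 with the replicate block, 0 with thinning and 5 with the block plus the correction. Its median became 0.00 with RLE and -0.01 with DESeq2, and reversed to 0.17 with thinning.

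Leaving out each library in turn, counts ranged from 4 to 38 (input), 0 to 38 (J2) and 1 to 20 (K1) for DKO against control. Against input they ranged from 0 to 58 (J2, control), 1 to 33 (J2, DKO), 0 to 38 (K1, control) and 13 to 27 (K1, DKO), and for the interaction from 0 to 32 (J2) and 0 to 16 (K1). Medians in the same order ranged from -0.44 to -0.07, -0.27 to 0.50 and -0.45 to -0.08, then -0.83 to -0.64, -0.55 to -0.37, -0.17 to -0.11 and -0.64 to -0.29, then 0.12 to 0.50 and -0.20 to -0.07.

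The replicate block gave counts of 17, 1, 5, 26, 12, 29, 30, 0 and 7 in that order, and only the 2 interaction counts moved by over 1.5 times. Numbers shared by control and DKO name different animals (correlations of 0.03, -0.09 and -0.10). The median count per gene in DKO pulldowns was 23 to 37, and the part of this depth, or of the spread between the 2 DKO mice, in the number of calls was not tested.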
